A study of Mus musculus with 12 samples.

Results

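The beta-defensins, lipocalins and secreted protease inhibitors described here are the 84 genes whose symbol begins with Defb, Lcn, Spink or Wfdc followed by a number. They comprise 43 beta-defensins (Defb), 11 lipocalins (Lcn), 12 Kazal-type serine protease inhibitors (Spink) and 18 whey acidic protein (WAP) domain genes (Wfdc). Gene counts were deposited as a sperm table of 51826 entries and a testis table of 23502 entries, and each table listed 83 of the 84 genes. Both tables listed 82 of them, while Defb44-ps stood in the sperm table alone and Lcn15 in the testis table alone.

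Beta-defensins are small cationic peptides that kill microbes, and many of them also coat sperm during epididymal transit. Lipocalins are secreted carriers of small hydrophobic ligands such as retinoids. Kazal-type and WAP domain proteins include inhibitors of secreted serine proteases, and several of each are released by the epithelium of the epididymis, the duct in which sperm mature and are stored. Most genes of each family stand side by side in clusters, while Lcn2, Spink2, Spink4, Spink8 and Wfdc1 stand alone. Different clusters and different members are active in different segments of the duct, with some members used in the testis itself.

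Poly(A) RNA was sequenced in 12 libraries of mice on a C57BL/6J background, with 3 biological replicates in each of 4 groups. Mature sperm were taken from the cauda epididymis, the storage end of the duct, at postnatal day 56 from WT mice and from Xap5l KO mice, in which Xap5l (listed as Fam50b) was deleted in all cells by CRISPR/Cas9. Whole testes were taken at postnatal day 16 from WT mice and from Xap5 cKO mice, in which floxed Xap5 (listed as Fam50a) was removed by Stra8-GFPCre, a Cre active in male germ cells before meiosis. The somatic cells of Xap5 cKO testes therefore still carried Xap5, and a testis at day 16 does not yet hold elongated spermatids or sperm.

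Total counts per library were 32251198 to 52308452. Fam50b gave 419 to 574 counts in WT sperm and 8 to 23 in Xap5l KO sperm, and Fam50a averaged 24.7 ± 2.62 CPM (counts per 1000000 counts, SD, n = 3) in WT testes and 19.6 ± 1.43 CPM in Xap5 cKO testes. Among the WT testes, replicate 3 resembled the Xap5 cKO testes more than replicates 1 and 2 did, with correlations of 0.948 to 0.952 against 0.919 to 0.925 for log2 CPM over all genes tested. The list of epididymal markers held no member, and its 13 genes in the sperm table summed to 10230 to 12990 CPM in WT sperm and 6918 to 8823 CPM in Xap5l KO sperm, against 10.5 to 19.3 CPM in WT testes. Crisp1, the leading secreted protein of the epididymis, alone averaged 6199 ± 1017 CPM in WT sperm and was at 0 in every testis library, so epididymal transcripts were counted in the sperm preparations. In such bulk samples, fewer cells of a type and less RNA per cell cannot be told apart.

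To ask where these genes were read, their levels in WT sperm were set beside those in WT testes, in CPM over the 20548 symbols that both tables listed. All 3 WT sperm libraries lay above all 3 WT testis libraries for 49 of the 82 members, or 59.8%, while 21.9% of all shared genes did so. The reverse order held for 7 members, or 8.54%, against 49.4% of all shared genes. Tissue, age and table change together in this comparison, so it was not tested. Scaling by TMM (trimmed mean of M-values) over both tables gave 50 members higher and 5 lower in sperm, beside 7299 and 6792 of all shared genes in place of 4501 and 10148. In the beta-defensins the order was higher in sperm for 26 and lower for 4, in the lipocalins for 4 and 0, in the Kazal-type inhibitors for 8 and 0, and in the WAP genes for 11 and 3. The count includes Lcn4, whose counts stayed at or under 3 in every library.

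The gap was wide for the leading members. Wfdc15b averaged 1348 ± 423 CPM over the shared genes in WT sperm and was at 0 in all WT testis libraries, at least 15180-fold higher in sperm against a floor of 3 counts per library. Wfdc16 was at least 10280-fold higher and Defb28 at least 7132-fold higher on the same footing. Lcn12, a retinoid-binding lipocalin of the epididymis, averaged 155 ± 31.1 CPM in sperm and 0.125 ± 0.128 CPM in testes.

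The other pattern belonged to a few genes. Defb19 averaged 1.07 ± 0.352 CPM in WT sperm and 114 ± 4.25 CPM in WT testes, Defb36 0.409 ± 0.0816 and 38.2 ± 8.15 CPM, and Wfdc1 1.52 ± 0.195 and 127 ± 2.27 CPM. The remaining 4 members that were lower in sperm were Wfdc15a, Wfdc2, Defb45 and Defb23, and they were between 2.64-fold and 13.3-fold higher in testes. Wfdc3 was near parity, at 6.65 ± 1.08 CPM in sperm and 6.74 ± 0.422 CPM in testes. Spink2, the inhibitor of the acrosome of spermatids and sperm, averaged 54.8 ± 18.1 CPM in sperm and 26.3 ± 14.9 CPM in testes, with overlapping ranges when each table was scaled on its own (26.5 to 44.2 against 8.92 to 36.3 CPM).

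**Figure D1:**
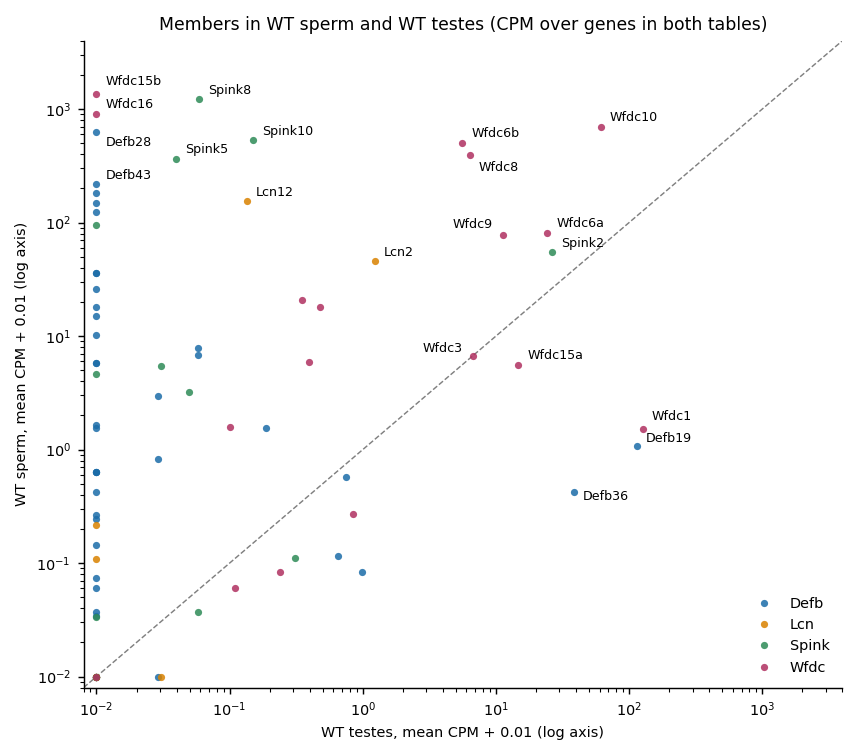
Mean CPM over the genes in both tables for the 82 shared members, with WT testes on the horizontal and WT sperm on the vertical log axis (0.01 added to each mean so that zeros show), 1 point per gene coloured by family, and a dashed line of equal levels. Most points lie above the line, many of them at the left edge where the testis mean is 0, while Defb19, Defb36 and Wfdc1 lie far below it.

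The contrast also appeared within clusters on chromosome 2 (GRCm38). The Wfdc cluster at chr2:164176327-164745931 held 14 members in 569.6 kb and gave 50.5% of the members' summed CPM in WT sperm and 29.7% in WT testes. Within it, Wfdc15a (chr2:164198863-164200130, minus strand) averaged 5.57 ± 0.347 CPM over the shared genes in WT sperm and 14.7 ± 3.65 CPM in WT testes, while its neighbour Wfdc15b (chr2:164214454-164221660, minus strand) had the highest level in sperm and was at 0 in testes. The Defb cluster at chr2:152459055-152623053 held 11 members in 164 kb, and gave 8.12% of the summed CPM in WT sperm and 34.8% in WT testes. Here Defb28 (chr2:152518255-152521447, plus strand) averaged 633 ± 174 CPM in WT sperm and was at 0 in WT testes, and Defb36 (chr2:152604327-152612729, plus strand) showed the opposite order.

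**Figure D2:**
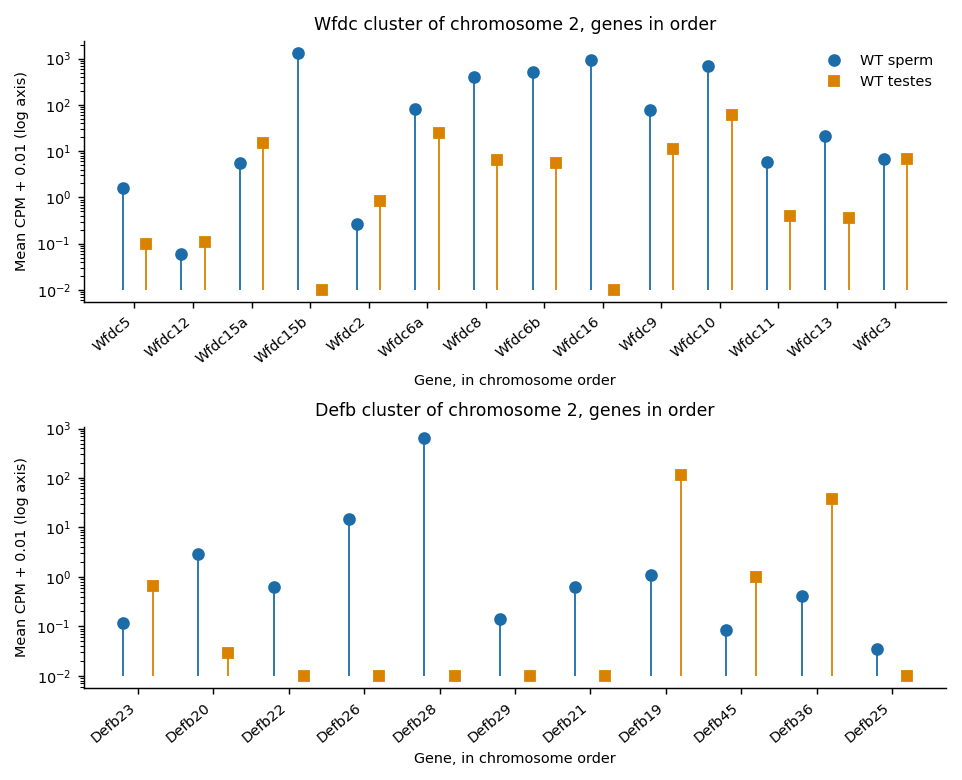
Mean CPM over the genes in both tables (log axis, 0.01 added) in WT sperm (circles) and WT testes (squares) for the members of the Wfdc cluster (upper panel) and the Defb cluster (lower panel) of chromosome 2, in chromosome order. Wfdc15b and Wfdc16 are at 0 in testes between neighbours that are read in both tissues, and Defb28 and Defb19 have opposite orders within the same cluster.

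The promoters of these genes are shown because the members of a pair lie in the same cluster and yet differ in where they were read. Each sequence is the 250 bases before the RefSeq start (GRCm38.p6), 5′ to 3′ on the strand of the gene, with matches in capitals. The letters searched on both strands were TGTTCT, the core hexamer bound by the androgen receptor, TATAAA for the TATA box, and TGACGT for the cAMP response element, and these do not overlap one another.
Wfdc15a, chr2:164200118-164200367, minus strand: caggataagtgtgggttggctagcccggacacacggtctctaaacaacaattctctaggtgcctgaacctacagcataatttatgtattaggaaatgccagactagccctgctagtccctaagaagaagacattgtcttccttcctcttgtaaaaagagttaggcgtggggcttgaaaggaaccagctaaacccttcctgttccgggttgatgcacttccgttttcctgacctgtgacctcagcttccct
Wfdc15b, chr2:164221664-164221913, minus strand: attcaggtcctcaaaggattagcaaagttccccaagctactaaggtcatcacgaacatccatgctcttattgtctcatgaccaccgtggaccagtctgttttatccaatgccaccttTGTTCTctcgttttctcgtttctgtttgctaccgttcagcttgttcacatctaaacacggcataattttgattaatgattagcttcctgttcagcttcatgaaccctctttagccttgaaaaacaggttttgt
Defb28, chr2:152518005-152518254, plus strand: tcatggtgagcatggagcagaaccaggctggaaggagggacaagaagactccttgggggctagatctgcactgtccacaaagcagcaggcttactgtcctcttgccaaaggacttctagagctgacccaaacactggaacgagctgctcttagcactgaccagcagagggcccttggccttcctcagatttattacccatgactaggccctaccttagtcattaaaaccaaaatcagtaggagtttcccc
Defb36, chr2:152604077-152604326, plus strand: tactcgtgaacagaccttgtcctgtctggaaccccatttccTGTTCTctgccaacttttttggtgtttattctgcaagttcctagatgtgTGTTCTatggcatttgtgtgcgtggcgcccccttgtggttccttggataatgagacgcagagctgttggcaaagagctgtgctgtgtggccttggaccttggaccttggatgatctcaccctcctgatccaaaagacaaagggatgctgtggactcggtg
TGTTCT stood 133 bases before the start of Wfdc15b, and 209 and 160 bases before that of Defb36, whereas the windows of Wfdc15a and Defb28 held none of these letters. Among all 32851 RefSeq promoter windows of this length, 16.1% held TGTTCT, 12.4% TATAAA and 6.47% TGACGT. Of the 61 windows of 55 members with an entry, 21 (34.4%), 9 (14.8%) and 2 (3.28%) held them. Of the 20 windows of the 16 members with an entry that exceeded 10 CPM in WT sperm, 4, 1 and 0 held them. Of the pair of genes with a match, Wfdc15b was read in sperm preparations and Defb36 mainly in testes. Defb19 and Spink8 had no entry.

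Within WT sperm, 42 of the 83 members listed exceeded 1 CPM, 25 exceeded 10 CPM and 12 exceeded 100 CPM. At the other end, 13 were at 0 in all 6 sperm libraries, and 17, these included, never passed 3 counts. The members together summed to 4616, 5786 and 5263 CPM in the 3 WT sperm libraries. From here on CPM is scaled by TMM within each table.

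The WAP genes held the largest share, 2650 ± 253 CPM. Wfdc15b gave 694, 962 and 950 CPM in the 3 WT libraries, Wfdc16 gave 534, 599 and 650 CPM, and Wfdc10 gave 478, 471 and 431 CPM. The levels of Wfdc15b and Wfdc16 did not overlap in WT sperm, and neither did those of Wfdc16 and Wfdc10. Wfdc2, the human counterpart of which (HE4) was first found in the epididymis, gave only 11, 2 and 8 counts. Wfdc6a and Wfdc6b share 41.9% and 36.5% of their 75-base stretches with each other, and how reads that fit both were counted is not given in the sources used here, so the split between them is uncertain. The exons of Wfdc6b also overlap those of Wfdc8 on the other strand.

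The Kazal-type inhibitors summed to 1477 ± 266 CPM. Spink8 on chromosome 9 made up 53.5% of that sum, with 671, 941 and 758 CPM in the WT libraries, and Spink10 and Spink5 followed at 343 ± 74.3 and 237 ± 39.5 CPM. Spink5 encodes LEKTI, the inhibitor of kallikreins in skin. The beta-defensins summed to 964 ± 126 CPM, and 5 genes gave 87.9% of it. These were Defb28 (361, 465 and 406 CPM), Defb43 (123, 159 and 143 CPM), Defb2 (109, 142 and 102 CPM), Defb11 (94.6, 111 and 88.2 CPM) and Defb40 (62.6, 93.2 and 81.7 CPM). Defb2 and Defb11 share 12.1% and 11.5% of their 75-base stretches with near copies, so their split is uncertain too. Defb22, the counterpart of the human sperm-coat defensin DEFB126, gave 38, 4 and 8 counts in WT sperm, 38 of them in WT replicate 1.

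Among the lipocalins, Lcn12 and Lcn2 accounted for 99.8% of 131 ± 8.49 CPM. Lcn12 gave 95.6, 100 and 108 CPM and Lcn2, an iron-siderophore carrier of innate immunity, gave 29.1, 27.7 and 32.7 CPM. The remaining members of the Lcn cluster around Lcn12 were almost silent, including Lcn5 and Lcn8, lipocalins known from the initial segment and caput of the duct. Lcn8 gave 2 to 15 counts per library, and Lcn6, Lcn9 and Lcn10 were at 0 in all 6 sperm libraries.

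Per kilobase of annotated exon, the order in WT sperm was Wfdc15b at 1519 ± 265 CPM per kb, then Defb28 at 1034 ± 132, Wfdc10 at 1002 ± 55.6 and Spink8 at 962 ± 168 CPM per kb, 3 genes that did not differ beyond their spread. Wfdc16 followed at 532 ± 52.4 CPM per kb, then Defb2 at 386 ± 70.9, Defb43 at 348 ± 45.0, Wfdc6b at 332 ± 43.4 and Defb11 at 309 ± 36.6 CPM per kb, with overlapping spreads among the last 4. Spink10 dropped to 41.5 ± 8.98 CPM per kb, since its annotated exons cover 8273 bases in all.

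**Figure D3:**
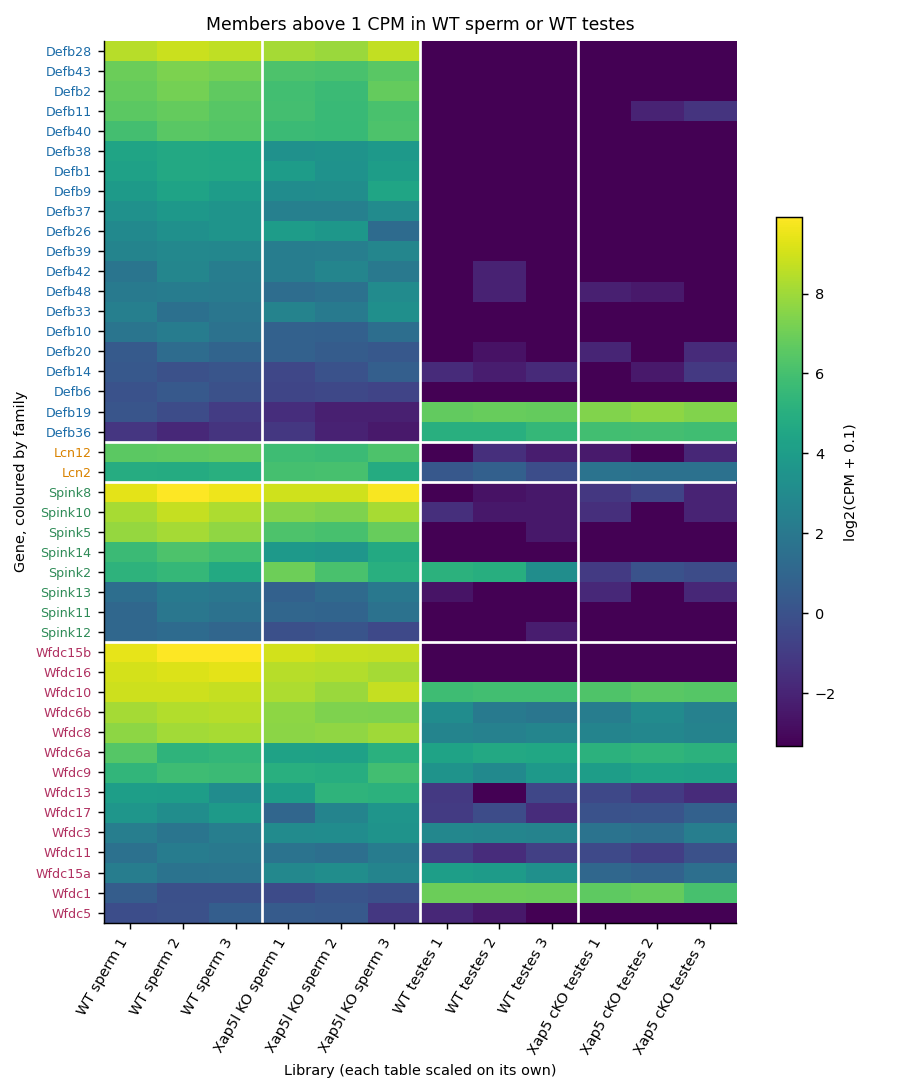
log2(CPM + 0.1) of the 44 members above 1 CPM in WT sperm or WT testes (rows, grouped by family and ordered by their level in WT sperm) in the 12 libraries (columns), each table scaled on its own. The sperm columns are bright for most rows and the testis columns dark, with the reverse for Defb19, Defb36 and Wfdc1.

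Comparing Xap5l KO with WT sperm asks what the loss of Xap5l changed in the RNA of these preparations. The 3 Xap5l KO libraries summed to 3311, 2970 and 4035 CPM over all members, below each WT library. As unscaled percent of counts the groups overlapped, at 0.267%, 0.333% and 0.45% in Xap5l KO and 0.379%, 0.626% and 0.585% in WT sperm. Wfdc genes summed to 1634 ± 119 against 2650 ± 253 CPM with separate ranges. Defb genes summed to 671 ± 175 against 964 ± 126 CPM and Spink genes to 1020 ± 280 against 1477 ± 266 CPM, and in both families Xap5l KO replicate 3 exceeded the lowest WT library. Lcn genes summed to 114 ± 10.9 against 131 ± 8.49 CPM.

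Of the 83 members, 50 passed the filter on low counts. By the quasi-likelihood test of edgeR, adjusted by Benjamini-Hochberg over all 20945 genes tested, 1 member was upregulated and 5 were downregulated (adjusted p below 0.05 and a fold change above 2), where 7.59% of all genes tested were upregulated and 1.27% downregulated. Without the fold change threshold 2 members were higher and 11 lower, beside 9.02% and 3.07% of all genes. These 2 and 11 became 0 and 4 with library size alone and 3 and 6 with no filter on low counts, and ranged from 0 to 4 and from 0 to 13 when 1 library was left out, with 0 and 0 when WT sperm 2, WT sperm 3 or Xap5l KO sperm 2 was omitted, and 1 and 1 when Xap5l KO sperm 1 was. All 3 Xap5l KO libraries lay below all WT libraries for 17 members and above them for 3, while 19.2% of all genes lay below and 19.2% above. The median log2 fold change was -0.40 over the 50 members and -0.08 over all genes tested. With RLE size factors 2 members were upregulated and 4 downregulated, and with library size alone 0 and 4.

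Leaving out single libraries changed these counts. When WT sperm 2, WT sperm 3 or Xap5l KO sperm 2 was left out, 0 members were called by edgeR, and only 1 to 2 genes in each direction over the whole table, although 5, 7 and 6 members were still lower at an unadjusted p below 0.05 and a fold change above 2, and 3, 1 and 2 higher. Without Xap5l KO replicate 1, 1 member (Wfdc13) was upregulated and 1 (Spink14) downregulated. Omitting WT replicate 1 gave 2 and 7, and omitting Xap5l KO replicate 3 gave 3 and 7. No member given with a log2 fold change here changed its sign in any of these fits. DESeq2 on all 6 libraries called 4 members upregulated and 6 downregulated.

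The lower genes included 3 Kazal-type inhibitors that stand in 1 cluster of 6 members on chromosome 18. Spink5 gave 223, 282 and 207 CPM in WT and 73.0, 66.8 and 113 CPM in Xap5l KO sperm. Its level was thus lower in every Xap5l KO library, with a log2 fold change of -1.49 ± 0.27 (SE, adjusted p = 0.016). Spink14 gave 51.5, 73.9 and 60.7 CPM in WT and 14.4, 12.3 and 26.5 CPM in Xap5l KO sperm (log2 fold change -1.81 ± 0.31, adjusted p = 0.0141). Spink12 was low throughout, at 66, 98 and 90 counts in the WT libraries against 29, 55 and 38 in Xap5l KO sperm (-1.34 ± 0.31, adjusted p = 0.0273). The ranges of all 3 genes were separate between the genotypes. The calls of Spink5 and Spink12 were lost in 4 of the 6 fits that left out 1 library, and that of Spink14 in 3 of the 6.

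The other downregulated members were Wfdc6a and Defb19. Wfdc6a gave 86.2, 38.6 and 43.4 CPM in WT and 19.9, 18.8 and 33.4 CPM in Xap5l KO sperm (-1.22 ± 0.35, adjusted p = 0.049), and WT replicate 1 stood well above the rest. Its call was lost with RLE size factors, with library size alone and in 5 of the 6 fits that left out 1 library. Defb19 gave 34, 31 and 19 counts in WT and 8, 7 and 7 counts in Xap5l KO sperm (-2.21 ± 0.53, adjusted p = 0.0306). This is the gene that was about 107-fold higher in testes, and its call was lost when any single library was left out. Sertoli cell markers, summed over 9 genes, overlapped at 19.1 to 24.5 CPM in WT and 7.38 to 19.8 CPM in Xap5l KO sperm. Sox9 alone averaged 13.4 ± 4.79 CPM in WT sperm, while Amh averaged 0.275 and Fshr 0.0721 CPM. The part of Sertoli cell RNA in the result was not tested.

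A further 6 members were lower at an adjusted p below 0.05 with smaller folds. They were Defb38, Defb37, Defb43, Lcn12, Wfdc16 and Wfdc6b, with log2 fold changes from -0.97 to -0.75. All 6 calls were lost with library size alone, all but that of Defb38 with no filter on low counts, and those of Lcn12 and Wfdc16 with RLE size factors. Wfdc16 and Wfdc6b were also lost in 5 of the 6 fits that left out 1 library, and the other 4 genes in 4. Defb43, for example, gave 123, 159 and 143 CPM in WT and 73.4, 69.7 and 90.6 CPM in Xap5l KO sperm, and Lcn12 gave 56.2, 51.8 and 73.0 CPM in Xap5l KO sperm, below each WT library. Wfdc15b missed the threshold at an adjusted p of 0.0502, although its 509, 440 and 433 CPM in Xap5l KO sperm lay below each WT library (-0.92 ± 0.26).

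The other abundant members did not pass the test, and in several of them Xap5l KO replicate 3 lay within the WT range. Spink8 gave 502, 500 and 873 CPM in Xap5l KO sperm (-0.34 ± 0.31, adjusted p = 0.462), Defb28 gave 280, 242 and 420 CPM (-0.39 ± 0.28, adjusted p = 0.343), and Wfdc10 gave 314, 242 and 436 CPM (-0.48 ± 0.27, adjusted p = 0.244). In each of the 3 genes the replicates 1 and 2 lay below all WT libraries. Wfdc8, at 253 ± 46.7 and 219 ± 31.6 CPM, had the smallest change among them (-0.21 ± 0.24, adjusted p = 0.572). Spink10 gave 182, 165 and 288 CPM in Xap5l KO sperm, below each WT library (-0.70 ± 0.29, adjusted p = 0.126), and so did Defb11 with 61.5, 49.1 and 70.1 CPM (-0.70 ± 0.22, adjusted p = 0.0628). Defb2 and Defb40 overlapped between the genotypes, at adjusted p of 0.162 and 0.232.

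Among the rarer members, Defb18 gave 5, 88 and 33 counts in WT and 9, 16 and 9 counts in Xap5l KO sperm. WT replicate 2 held most of its counts, WT replicate 1 the fewest, and it did not pass the test (-2.09 ± 0.77, adjusted p = 0.0944). Spink13 gave 2.67, 4.06 and 3.67 CPM in WT and 1.66, 2.28 and 3.84 CPM in Xap5l KO sperm, with overlapping ranges (-0.41 ± 0.34, adjusted p = 0.413).

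Only Wfdc3 was upregulated by edgeR under both thresholds, from 5.04, 3.40 and 4.88 CPM in WT to 8.22, 8.41 and 11.2 CPM in Xap5l KO sperm (1.07 ± 0.24, adjusted p = 0.0267). Wfdc15a was 1.96-fold higher at 7.02, 8.85 and 6.14 CPM against 4.79, 3.14 and 3.32 CPM (0.97 ± 0.26, adjusted p = 0.0408). For both genes the call was lost with library size alone and in 4 of the 6 fits that left out 1 library (each but those without WT replicate 1 or Xap5l KO replicate 3). Both are members that were not higher in WT sperm than in WT testes. Spink2 gave 36.9, 44.2 and 26.5 CPM in WT and 127, 68.0 and 32.2 CPM in Xap5l KO sperm, so that replicate 3 overlapped WT (1.08 ± 0.43, adjusted p = 0.113). Wfdc13 gave 16.3, 38.8 and 35.9 CPM against 16.8, 16.5 and 8.48 CPM (1.12 ± 0.36, adjusted p = 0.0696), and Lcn2 gave 65.3, 66.6 and 28.4 CPM against 29.1, 27.7 and 32.7 CPM (0.84 ± 0.31, adjusted p = 0.0937). The largest positive log2 fold change, 1.77 ± 0.85 for Defb29, rested on 15, 13 and 13 counts against 2, 8 and 0.

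**Figure D4:**
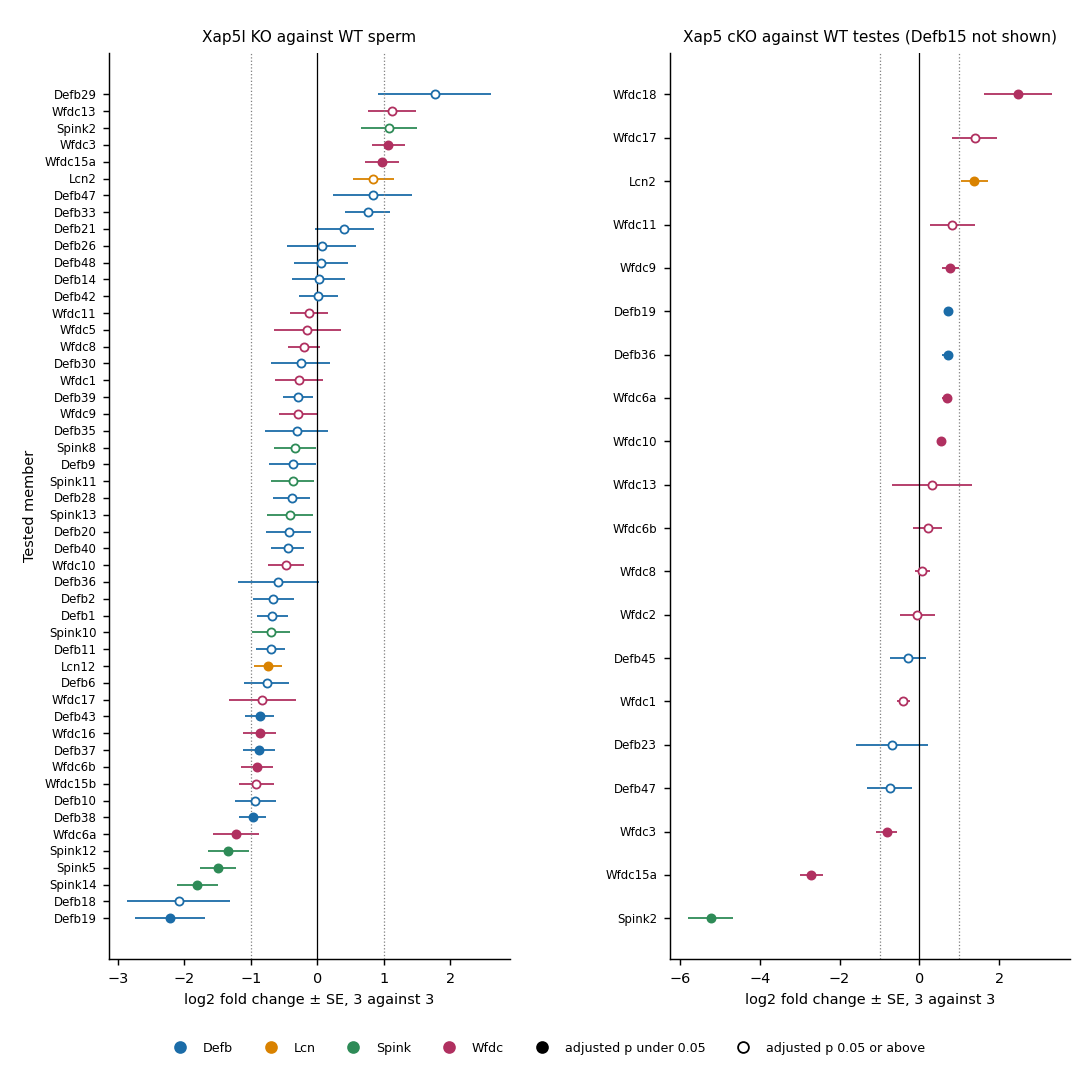
log2 fold change (points) with its SE (bars) for the 50 members tested in Xap5l KO against WT sperm (left) and for 20 of the 21 tested in Xap5 cKO against WT testes (right), filled where the adjusted p is below 0.05, with dotted lines at a fold change of 2. On the left 37 of the 50 points lie below 0, with Defb19, Spink14, Spink5 and Spink12 filled at the bottom, and on the right Spink2 and Wfdc15a stand far below 0.

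The sums of cell type markers were also compared between the genotypes. Epididymal markers were lower in Xap5l KO sperm as a sum (8052 ± 1003 against 11660 ± 1383 CPM), with 0 of the 11 tested past an adjusted p of 0.05 by edgeR, 3 lower at an unadjusted p below 0.05 and 3 lower by DESeq2. Macrophage markers summed to 175 to 509 CPM against 779 to 898 CPM, and 3 of the 9 tested were downregulated. The 11 neutrophil markers summed to 206 to 353 CPM in Xap5l KO and 335 to 407 CPM in WT sperm. Of the 8 tested, 3 were downregulated (Csf3r, Cxcr2 and S100a9) and 0 upregulated by edgeR, with 0 higher and 4 lower at an unadjusted p below 0.05 and also by DESeq2, and a median log2 fold change of -1.46. Ltf led this list, with 338 ± 40.8 CPM of a summed 360 ± 41.0 CPM in WT sperm and 249 ± 77.5 CPM in Xap5l KO sperm. Ly6g and Elane were at 0. Mpo and S100a8 had positive log2 fold changes (0.84 ± 0.47 and 0.48 ± 0.42) and did not pass the test. In contrast, pachytene spermatocyte markers summed to 2972 ± 320 against 1725 ± 503 CPM. Of the 8 tested, 4 were upregulated (Adam3, Clgn, Hspa2 and Ldhc) and 0 downregulated by edgeR. At an unadjusted p below 0.05, 4 were higher and 1 (Piwil1) lower, so the list did not rise as a whole. Spermatid and sperm markers summed to 47680 to 87410 CPM in Xap5l KO and 53960 to 132200 CPM in WT sperm. Of their 10 genes tested, 1 was upregulated and 0 downregulated by edgeR, and 4 were higher by DESeq2. Their median log2 fold change was 0.73. To read the members beside epididymal RNA, they were also expressed per 1000 counts of the epididymal markers, a measure chosen after the values were seen. All members together gave 451, 445 and 447 counts per 1000 in WT and 393, 429 and 457 in Xap5l KO sperm, so that the groups overlapped. On this scale 9 members lay below and 9 above all WT libraries, in place of 17 and 3, while 1.77% and 35.0% of all genes did so.

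The members that stayed apart on this scale were again Spink5, Spink14 and Spink12 among those below. Spink5 gave 21.8, 21.7 and 17.6 counts per 1000 epididymal marker counts in WT and 8.68, 9.65 and 12.8 in Xap5l KO sperm. Spink14 gave 5.03, 5.69 and 5.16 in WT and 1.71, 1.77 and 3.0 in Xap5l KO sperm. The remaining members below were Defb19, Defb37, Defb38, Defb43, Wfdc6b and Wfdc15b, and for these but Defb19 the Xap5l KO level was 0.738 to 0.798 of the WT level. Wfdc3, Wfdc15a, Spink2, Lcn2 and Wfdc13 were among those above. A lower ratio shows an unequal change of these transcripts and of a marker sum led by Crisp1 and Cd52. The part of epididymal, macrophage, neutrophil, spermatocyte and spermatid RNA in these results was not tested.

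**Figure D5:**
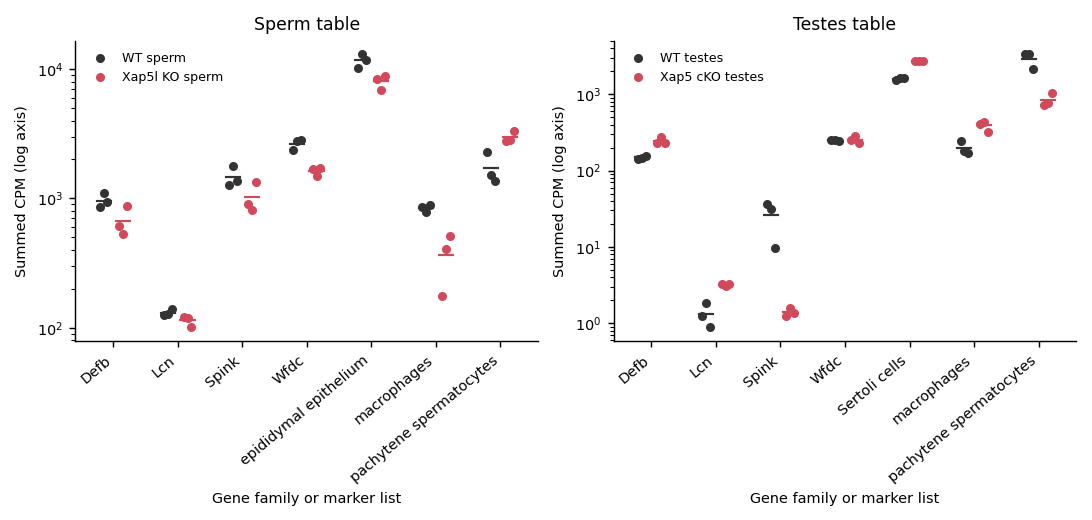
Summed CPM (log axis) of the 4 families and of 3 marker lists in each library of the sperm table (left) and the testis table (right), with WT in grey, the mutant in red and a line at each group mean (n = 3). In sperm the Wfdc sums of the 2 genotypes are apart and the epididymal and macrophage sums move the same way, and in testes the Spink sum is lower while the Defb and Sertoli cell sums are higher.

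In testes at day 16, the members were a small part of the RNA. They summed to 432, 431 and 410 CPM in WT testes and to 486, 562 and 468 CPM in Xap5 cKO testes, 40 of the 83 were at 0 in all 6 libraries, and only 12 exceeded 1 CPM in WT. Per kilobase of exon the order in WT testes was Defb19 at 278 ± 8.61 CPM per kb, Wfdc10 at 127 ± 5.47, Wfdc1 at 79.2 ± 2.60 and Defb36 at 78.1 ± 15.4 CPM per kb, the last pair within their spread. Spink2, Wfdc15a, Wfdc6a and Wfdc9 followed at 32.2 ± 18.4, 28.9 ± 7.55, 26.8 ± 2.94 and 19.9 ± 5.42 CPM per kb and overlapped one another. Thus Wfdc10 was the only member that exceeded 50 CPM in both WT tissues.

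Comparing Xap5 cKO with WT testes asks what the loss of Xap5 in germ cells changed. Among the 21 members that passed the filter, 3 were upregulated and 2 downregulated, beside 4.15% and 10.9% of the 16821 genes tested. Without the fold change threshold 8 were higher and 3 lower, beside 25.0% and 28.1% of all genes. The Xap5 cKO libraries lay above all WT libraries for 9 members and below them for 4, where 29.9% and 32.4% of all genes did so. The median log2 fold change was 0.33 over the members and -0.01 over all genes tested. Setting Defb15 at its bound could not move the median, since Defb15 is the highest value either way.

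The downregulated genes were Spink2 and Wfdc15a. Spink2 (chr5:77205107-77211471) gave 36.3, 30.9 and 8.92 CPM in WT testes and 0.373, 0.91 and 0.729 CPM in Xap5 cKO testes, so that every Xap5 cKO library was far below WT replicate 3, the lowest WT library (log2 fold change -5.23 ± 0.57, adjusted p = 8.9e-05). Wfdc15a gave 17.1, 15.3 and 9.98 CPM in WT and 2.02, 1.70 and 2.76 CPM in Xap5 cKO testes (-2.70 ± 0.28, adjusted p = 6.93e-05). Wfdc3 was also lower, at 3.20, 2.76 and 4.98 CPM against 6.94, 6.47 and 5.95 CPM (-0.82 ± 0.26, adjusted p = 0.0255), though 4 of the 6 fits with 1 library left out did not call it (each but those without WT replicate 3 or Xap5 cKO replicate 3). Pachytene spermatocyte markers moved with them, at 720 to 1048 CPM in Xap5 cKO and 2167 to 3345 CPM in WT testes, with WT replicate 3 lowest, and their part in the result was not tested.

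The same 3 genes had positive log2 fold changes in Xap5l KO sperm, where Spink2 did not pass the test and the calls of Wfdc15a and Wfdc3 were lost with library size alone and in 4 of the 6 fits with 1 library left out. The 2 comparisons share no library. For Wfdc15a the values were 0.97 ± 0.26 in sperm and -2.70 ± 0.28 in testes, for Wfdc3 they were 1.07 ± 0.24 and -0.82 ± 0.26, and for Spink2 they were 1.08 ± 0.43 and -5.23 ± 0.57. Other members had the reverse signs, with -2.21 in sperm and 0.71 in testes for Defb19, -1.22 and 0.68 for Wfdc6a, and -0.48 and 0.54 for Wfdc10. Defb19 and Wfdc6a passed an adjusted p of 0.05 by edgeR in both comparisons. Their sperm calls were lost in at least 5 of the 6 fits with 1 library left out. Lcn2 was positive in both, at 0.84 and 1.37. Genes outside the members also had opposite signs. Adam3, Clgn, Hspa2 and Ldhc were positive in sperm and negative in testes (for Ldhc 1.05 and -6.19), while Piwil1 and Sycp3 were negative in both. The share of all genes with opposite signs is not given here, so the pattern cannot be called particular to the members. The difference between the comparisons was not tested, since the tables were made separately.

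The upregulated members were Defb15, Lcn2 and Wfdc18. Defb15 (chr8:21929799-21932710) was at 0 counts in all WT testes and gave 85, 121 and 162 counts in Xap5 cKO testes, at least 43.6-fold higher against a floor of 3 counts per library (adjusted p = 7.2e-05). Its exons overlap those of Gm36879 on the other strand, and whether counting used strand is not given in the sources used here, so reads of the pair cannot be told apart. Its neighbour Defb35 was at 0 in WT and gave 32, 7 and 33 counts in Xap5 cKO testes but did not pass the filter. Both stand in a cluster on chromosome 8 that gave 0 CPM in WT testes over its 10 members.

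Lcn2 gave 1.16, 1.56 and 0.778 CPM in WT and 3.17, 2.96 and 2.95 CPM in Xap5 cKO testes (1.37 ± 0.34, adjusted p = 0.0078). Wfdc18 gave 8, 0 and 15 counts in the WT libraries against 43, 36 and 42 in Xap5 cKO testes (2.47 ± 0.85, adjusted p = 0.035), and its call was lost without WT replicate 1 or any of the Xap5 cKO replicates. Wfdc17, a WAP gene of activated macrophages, missed the threshold at a log2 fold change of 1.38 ± 0.57 (adjusted p = 0.0671). The 9 macrophage markers summed to 325 to 436 CPM in Xap5 cKO and 171 to 245 CPM in WT testes, all 9 were higher at an adjusted p below 0.05, and their part in the result was not tested.

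Several members with high testicular levels rose by less than 2-fold. Defb19 gave 106, 113 and 110 CPM in WT and 168, 203 and 166 CPM in Xap5 cKO testes (0.71 ± 0.08, adjusted p = 0.000134), and Defb36 gave 32.6, 32.2 and 44.8 CPM and 58.8, 63.0 and 57.1 CPM (0.71 ± 0.13, adjusted p = 0.00186). Wfdc10, Wfdc6a and Wfdc9 of the Wfdc cluster were higher as well, by 1.45-fold, 1.60-fold and 1.71-fold, with separate ranges between the genotypes. Wfdc1, a growth-inhibiting secreted protein, gave 125, 124 and 117 CPM in WT and 98.2, 112 and 65.8 CPM in Xap5 cKO testes (-0.41 ± 0.16, adjusted p = 0.0584). Defb45 and Defb47 followed Defb19 and Defb36 among the beta-defensins of WT testes, and Defb47 gave 14, 27 and 35 counts there and 9, 17 and 16 counts in Xap5 cKO testes (-0.75 ± 0.56, adjusted p = 0.29). Spink4, the second Kazal-type inhibitor of WT testes, gave 13, 2 and 15 counts against 3, 4 and 5 and did not pass the filter, and neither did Spink8 and Spink10 at up to 19 and 8 counts per testis library. Beyond Lcn2 and Lcn12 the lipocalins were near 0 in WT testes, where Lcn3 gave 2, 0 and 0 counts and Lcn11 was at 0.

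Sertoli cell markers were higher too, summing to 1557 to 1636 CPM in WT and 2702 to 2749 CPM in Xap5 cKO testes. Per 1000 counts of these 9 markers, another scale chosen after the values were seen, 3 members lay above and 10 below all WT libraries, in place of 9 and 4, while 2.34% and 70.1% of all genes did so. The 3 above were Defb15, Lcn2 and Wfdc18. Wfdc10 went from 35.7, 36.9 and 36.8 counts per 1000 to 28.6, 33.0 and 31.8, and Wfdc1 from 80.1, 75.6 and 72.6 to 36.2, 40.6 and 24.3, whereas Defb19 and Defb36 overlapped between the genotypes. The part of the larger Sertoli cell sum in these results was not tested.

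Other secreted genes of the tract were read from a list of 40 (Crisp, Adam, Rnase, Cst, Spint and similar genes). Several of them, with Crisp1 and Adam7, are also among the epididymal markers above, so the 2 lists are not independent. In sperm 27 of them passed the filter, and 0 passed an adjusted p of 0.05 by edgeR, while 1 was higher and 4 were lower at an unadjusted p below 0.05, and 1 and 2 by DESeq2. Their median log2 fold change was -0.39. Adam7, a membrane protein that sperm take up from the epididymis, averaged 680 ± 106 and 371 ± 171 CPM in WT and Xap5l KO sperm (-0.87 ± 0.34, adjusted p = 0.109). In testes 13 passed the filter, and 1 (Spint3) was upregulated and 3 (Ptgds, Rbp4 and Spint5) were downregulated, while 4 were higher and 4 lower without the fold change threshold.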

How the data were processed

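RNA was sequenced from 3 replicates each of WT sperm, Xap5l KO sperm, WT testes and Xap5 cKO testes. Per the study's methods and the submitters' processing notes, the authors trimmed reads with Trimmomatic 0.36 after FastQC 0.11.2, aligned paired poly(A) RNA reads to GRCm38 with HISAT2 2.1.0 and used DESeq2 1.12.4. The deposited values are raw gene counts, and the tool that made them, its use of strand and its treatment of reads that fit several genes are not given in the sources used here. The 2 tables were made separately and list different sets of genes, so sperm and testes were compared without a test, in CPM over the 20548 shared symbols.

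Within each table, genes were filtered with filterByExpr, scaled by TMM and compared between genotypes with the quasi-likelihood test of edgeR 4.0.16 (R 4.3.3), with Benjamini-Hochberg adjustment over all genes tested. Genes were called at an adjusted p below 0.05 and a fold change above 2, and the SE was taken from the log2 fold change and its F statistic. P-values measure the spread between 3 samples a group. edgeR estimated a common coefficient of variation between replicates of 0.287 for sperm and 0.174 for testes. On simulated counts the fit recovered 86.9% of 199 changed genes in sperm and 99.5% of 200 in testes. The planted changes were larger than most member changes, were set only in genes above a minimum mean count, and all genes were given a common spread. These shares therefore do not give the power for the smaller changes of the members. Floors of 3 counts cover counting error only.

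Members were found by symbol, 83 of 84 matched the GENCODE M21 annotation of GRCm38, and genes within 1 Mb were joined into clusters. The members and gene lists were chosen with earlier results of these data known. Named genes were, in each family, up to 6 with the highest mean in WT sperm and up to 4 in WT testes, every member past an adjusted p of 0.05, the 3 largest changes in each direction, Fam50a, Fam50b and the leading gene of every list of markers. Of the last, only Crisp1, Ltf and Sox9 are printed. Cd52, Csf3r, Cxcr2, S100a9, S100a8, Mpo, Adam3, Clgn, Hspa2, Ldhc, Piwil1, Sycp3, Amh and Fshr were added after their values were seen. So were Defb22, Wfdc2, Defb35, Lcn5, Lcn8 and the members of the shared-gene comparison. Alternatives were other scalings, filters, DESeq2 1.42.0, a replicate block and leaving out each library.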

Additional observations from a re-analysis of the deposited data

How the results depend on the processing

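No member reported with a log2 fold change changed sign under any alternative. Upregulated members in Xap5l KO sperm numbered 1, but 2 with RLE size factors, 0 with library size alone (4 at an unadjusted p below 0.05 by edgeR), 3 with no filter on low counts, 4 with DESeq2 and 2 with no fold change threshold, and 0 to 3 when 1 library was left out. Downregulated members there numbered 5, but 11 with no fold change threshold and 0 to 7 when 1 library was left out, the 0 being reached when WT sperm 2, WT sperm 3 or Xap5l KO sperm 2 was omitted. In Xap5 cKO testes 3 were upregulated, but 1 where at least 10 counts were required in every library, which removes Defb15 and Wfdc18, 8 with no fold change threshold, and 2 to 5 when 1 library was left out. The 5 were reached without WT replicate 2. Downregulated members in testes, and the members above and below between WT sperm and WT testes, stayed within 1.5 times of the reported counts under each alternative run. Over all genes in sperm, 267 downregulated genes became 149 with library size alone and 147 with a replicate block, and leaving out 1 library gave 1 to 2402 upregulated and 1 to 443 downregulated genes in place of 1589 and 267.

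Same-numbered samples did not deviate together (correlations of 0.166, -0.024 and -0.122 in sperm, and 0.00711, -0.0302 and -0.0345 in testes), so the numbers were not taken as pairs. With the replicate block 1 member was upregulated and 4 were downregulated in sperm, and 3 and 2 in testes. The 2 higher and 11 lower members at an adjusted p below 0.05 in sperm became 1 and 5, since the block put the adjusted p between 0.0651 and 0.0849 for Defb37, Defb43, Lcn12, Wfdc15a, Wfdc16, Wfdc6a and Wfdc6b. With DESeq2 they were 5 and 14. No member row carried an added number, so leaving such rows out gave no separate value. The cause of these changes was not tested. With 3 samples a group, and a wider spread in sperm than in testes, members at a few counts per library could not be compared.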
